A study of Homo sapiens with 2 samples.

Results

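The genes described here are CES1, CES2 and CES3, 3 of the human carboxylesterases, and AADAC, arylacetamide deacetylase, 4 genes in all. They were taken as every probe set annotated to exactly 1 of these symbols on the Affymetrix U133 Plus 2.0 microarray. A probe set is a group of short probes that together give 1 signal for a transcript. The rule gave 5 probe sets of 54675 on the array: 1 for CES1, 3 for CES2 and 1 for AADAC. No probe set was annotated to CES3 in the annotation used here, so CES3 was not analysed. No probe set was annotated to a member together with a second gene.

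RNA came from Seg-1, a cell line that the labels give as the lung adenocarcinoma line H460, which had earlier passed for an esophageal adenocarcinoma line. One culture received a negative control siRNA without homology to known genes. The other received an siRNA against FGF-AS, an RNA transcribed antisense to FGF2, the fibroblast growth factor 2 gene. Both were grown in the same medium with serum, received siRNA with the same lipid reagent at a final concentration between 25 and 200 nM that the labels do not give per array, and were harvested after 72 hours. Each group holds 1 array, so differences cannot be set against replicates, and p-values are absent throughout. The genes were chosen by their symbols after the ratio of CES1 on these same arrays had been seen, so the ratios are a description of these 2 arrays.

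Carboxylesterases are serine hydrolases of the endoplasmic reticulum lumen that split ester, amide and thioester bonds in drugs, in environmental esters and in lipids. CES1 is the main carboxylesterase of the liver, is also present in lung and macrophages, activates or inactivates many ester drugs and can act on cholesteryl esters and triglycerides. CES2 is the main carboxylesterase of the intestine and converts the prodrug irinotecan to its active form. CES3 is a less abundant relative. AADAC is a microsomal membrane enzyme of liver and intestine that removes acetyl groups from arylamide drugs and is related in sequence to hormone-sensitive lipase.

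Promoter sequences were examined first, to show how the start regions of the genes compare. RefSeq promoters of build GRCh38.p14, from 250 bases before to 50 bases after an annotated start, were given for AADAC and CES2 and not for CES1 or CES3. Both are printed 5′ to 3′ on the + strand, which is the gene's strand. AADAC lies at chr3:151813866-151814165, and the first of the 2 starts listed for CES2 at chr16:66934221-66934520. Capitals mark every match, on either strand, to 1 of 8 motifs: TATAAA, the GC box GGGCGG, the HNF4 core CAAAGTCCA, the FOXA motif TGTTTAC, the C/EBP motif TTGCNNAA, the antioxidant response element core TGACNNNGC, the xenobiotic response element core GCGTG, and the p53 half-site.
AADAC: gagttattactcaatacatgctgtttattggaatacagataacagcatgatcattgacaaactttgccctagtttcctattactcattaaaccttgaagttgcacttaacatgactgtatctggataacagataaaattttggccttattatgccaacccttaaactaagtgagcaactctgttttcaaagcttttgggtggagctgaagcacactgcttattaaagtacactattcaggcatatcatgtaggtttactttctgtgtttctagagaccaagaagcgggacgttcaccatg
CES2: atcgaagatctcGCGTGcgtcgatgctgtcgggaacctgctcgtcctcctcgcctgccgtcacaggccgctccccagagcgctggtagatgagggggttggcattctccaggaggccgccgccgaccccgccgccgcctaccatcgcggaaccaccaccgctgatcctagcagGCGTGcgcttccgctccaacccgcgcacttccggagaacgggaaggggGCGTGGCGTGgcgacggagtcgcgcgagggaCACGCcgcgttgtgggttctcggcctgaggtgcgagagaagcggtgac
The AADAC promoter was poor in G and C (37.3%, lower than all but 7.06% of the 35116 promoters in the table) and held 2 CG dinucleotides. That of CES2 was 69% G and C, with 40 CG dinucleotides. The second start listed for CES2, at chr16:66935266-66935565, had 63.3% G and C and 14 CG dinucleotides. Of the 8 motifs, the window of AADAC and the second window of CES2 matched none, and the first window of CES2 matched GCGTG 5 times, 4 times forward and 1 time in reverse, with no overlap between matches. GCGTG was present in 36.5% of all promoters, and 5 or more matches in 0.652%. The limit of 5 was the count of CES2 itself. Both shares are over promoters of any G and C content (median 58.7%), not over those as rich in G and C as this window. The other motifs were present in 11.5% (TATAAA), 45.0% (GC box), 0.384% (HNF4 core), 3.42% (FOXA), 10.5% (C/EBP), 13.3% (antioxidant response element core) and 6.63% (p53 half-site) of all promoters. A match describes letters only, and no binding was measured.

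The deposited values are signals on a linear scale, with medians of 25.5 on the control array and 23.1 on the FGF-AS siRNA array over 54613 probe sets that are not Affymetrix controls. A probe set counted as measured when its mean signal over both arrays was at least 23.9, their median, and as brighter at 145.2 or more, the 75th percentile. For log2 ratios, which are FGF-AS siRNA over control, an offset of 6.1 was added to every signal, the 25th percentile of all signals. This offset understates the difference of dim probe sets. The only error available is how far probe sets for the same gene disagreed, an SD of a single log2 ratio of 0.36 among brighter probe sets (3050 genes) and 0.58 among dimmer ones (2365 genes). It covers differences neither between cultures nor between hybridisations. The epithelial keratin genes KRT8 and KRT18 read at least 3475.7 on both arrays, while 5 of 8 hepatocyte markers, including ALB and APOB, did not reach the minimum, and the brightest probe sets of these 8 summed to 121.5 on the control array and 168.1 on the other. Of 5 epithelial markers, 4 were measured, and CDH1 did not reach the minimum. Of 6 lung epithelium markers with a probe set, 4 were measured, HOPX (766.8 and 519.4), SFTPB (110.8 and 98) and the dim NAPSA and SFTPC (14.7 and 59.1, a log2 ratio of 1.65), while NKX2-1 and SCGB1A1 did not reach the minimum. The 6 summed to 969.1 and 738, and HOPX alone differed by more than this sum did. Of 5 fibroblast markers, 3 were measured and the 5 summed to 537.7 and 311.3. Most of that difference lay in COL3A1, a fibrillar collagen gene (316.4 and 104.6, -1.54), while COL1A1 read 164.3 and 151.6. Of 4 leukocyte markers with a probe set, the dim CD14 and CD3E were measured and PTPRC was not, and the 4 summed to 80.8 and 93.9. Of 6 intestinal markers, 3 were measured, among them the dim TFF1 (39.5 and 15.7, -1.06), and the 6 summed to 107.7 and 81.7. The part of these differences in the ratios below was not tested. NUDT6, the gene of the targeted antisense transcript, read 376.9 and 104.5 on its brighter probe set, a log2 ratio of -1.79.

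All 5 probe sets of CES1, CES2 and AADAC passed the minimum and the brighter limit, and all 5 read lower with FGF-AS siRNA. CES1 was lower by the most, at 21.3% of control, CES2 was 1.33- to 1.45-fold lower on its 3 probe sets, and AADAC was at 77.0%. Past 2-fold was 1 of the 5 probe sets, that of CES1, or 1 of 3 genes, each gene being represented by its brightest probe set. Among all measured probe sets with 1 symbol, 5.33% were at least 2-fold lower and 56.7% had a log2 ratio below 0, and among the brighter ones 2.57% and 54.5%. Over genes, 2.72% of 12352 measured and 1.11% of 7719 brighter genes were at least 2-fold lower, and 51.8% and 50.6% had a log2 ratio below 0. At least 2-fold higher were 2.05% of measured genes.

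**Figure D1:**
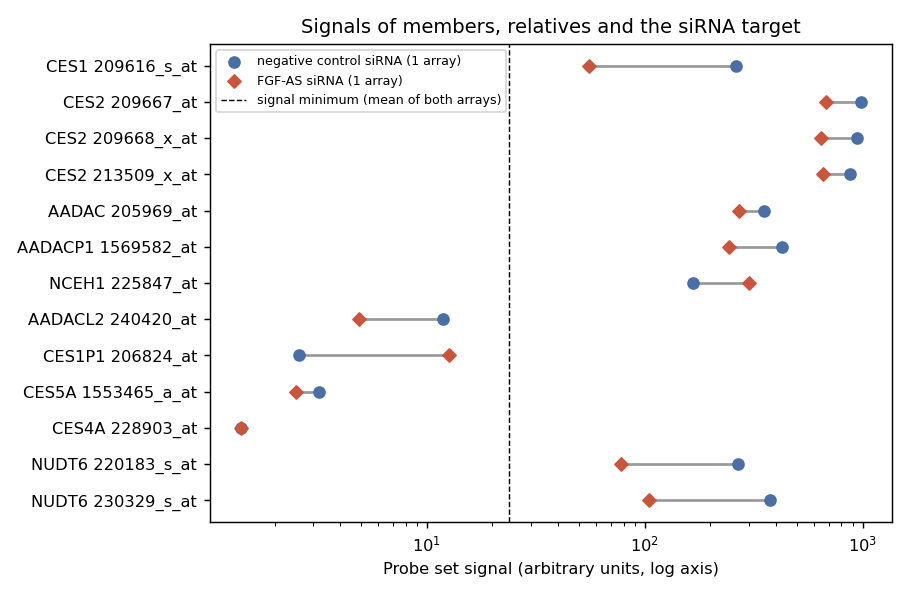
Signal of each probe set (log axis, arbitrary units) on the control array (circles) and the FGF-AS siRNA array (diamonds) for CES1, CES2, AADAC, related genes and NUDT6, with the signal minimum of 23.9 as a dashed line. The 5 probe sets of CES1, CES2 and AADAC read lower with FGF-AS siRNA, as did AADACP1 and NUDT6, and NCEH1 read higher. CES4A, CES5A, CES1P1 and AADACL2 lie left of the line. Signals of different probe sets are not comparable as RNA levels.

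CES1, the liver-type carboxylesterase, was read by 1 probe set (209616_s_at), whose signal was 261.9 on the control array and 55.8 on the FGF-AS siRNA array. The FGF-AS siRNA array was lower by 206.1 signal units. The log2 ratio was -2.11, 4.33-fold lower with the offset, and 5.92 times the probe set SD of 0.36. Relative to the median log2 ratio of all measured genes (-0.02), it was lower by 2.10. CES1 stood 4th lowest among the 7719 brighter genes and 30th lowest among the 12352 measured ones, each gene by its brightest probe set only. Among all probe sets with 1 symbol, that of CES1 stood 16th lowest of 12241 brighter and 123rd lowest of 23222 measured ones. Its mean signal of 158.9 was just above the brighter limit of 145.2, and its reading with FGF-AS siRNA was below that limit. The SD of 0.36 and the ranks among brighter genes and brighter probe sets therefore rest on its control reading. With the SD of dimmer probe sets, 0.58, the multiple of 5.92 would be smaller.

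The ending _s_at marks a probe set whose probes can match more than 1 transcript, often of one gene family. For CES1 the near-identical copy is CES1P1, a pseudogene. The probe set annotated to CES1P1 alone (206824_at) read 2.6 and 12.7, both under the minimum, so it gives no ratio that can be told from background. CES1 has no second probe set that could set the ratio of 209616_s_at against another one, and when probe sets ending in _s_at, _x_at or _a_at were left out, CES1 was no longer measured and 0 members were past 2-fold.

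CES2, the intestinal carboxylesterase, was read by 3 probe sets that gave similar ratios. Probe set 209667_at read 988.2 on the control array and 678.3 on the FGF-AS siRNA array, a log2 ratio of -0.54. Probe set 209668_x_at read 940.2 and 646.1, also a log2 ratio of -0.54. Probe set 213509_x_at read 880 and 659.6, a log2 ratio of -0.41. The control array was the higher in each of these pairs. The mean log2 ratio of the 3 was -0.50 with an SD between them of 0.07. Each single ratio was between 1.15 and 1.51 times the probe set SD of 0.36, and none was past 2-fold.

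The 3 CES2 ratios spanned 0.13 on the log2 scale. Among 1664 genes with exactly 3 measured probe sets the median span was 0.61, and 4.57% of them spanned no more than CES2. All 3 ratios were below 0 in 28.1% of these genes, and all 3 were at or under the least negative CES2 ratio in 4.03%. The 3 CES2 probe sets were all brighter ones. Among 753 genes with exactly 3 brighter probe sets the median span was 0.43, and 8.23% spanned no more than CES2. In these genes the other shares were 33.5% and 2.92%. The limits were the span and the least negative ratio of CES2 itself. Probe sets of one gene share both RNA samples, and sets ending in _x_at hold probes that can match other sequences, so their closeness says nothing of differences between cultures. On its brightest probe set CES2 lay at percentile 10.7 of measured genes and 6.66 of brighter genes, counted from the lowest ratio.

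AADAC, the arylacetamide deacetylase, was read by 1 probe set (205969_at), whose signal was 352.8 on the control array and 271.8 on the FGF-AS siRNA array. Its log2 ratio of -0.37, 1.29-fold lower, was 1.03 times the probe set SD of 0.36. It lay at percentile 18.5 of measured genes, so nearly 1 in 5 measured genes had a lower ratio, and a difference in AADAC was not resolved by these arrays.

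Set against CES2, the log2 ratio of CES1 was lower by 1.58, and set against AADAC, it was lower by 1.75. The genes were chosen after the ratio of CES1 had been seen, so the size of these differences is a description only. Both are larger than the SD of such a difference from probe set disagreement, 0.51. For CES1 that SD rests on its place among brighter probe sets, which its control reading alone gave it. With the SD of dimmer probe sets, 0.58, it would be larger. Set against AADAC, the log2 ratio of CES2 was lower by 0.17, which is less than 0.51. Set against NUDT6, the targeted gene, that of CES1 was lower by 0.32, again less than 0.51. With 1 array per group none of these differences between ratios could be tested.

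**Figure D2:**
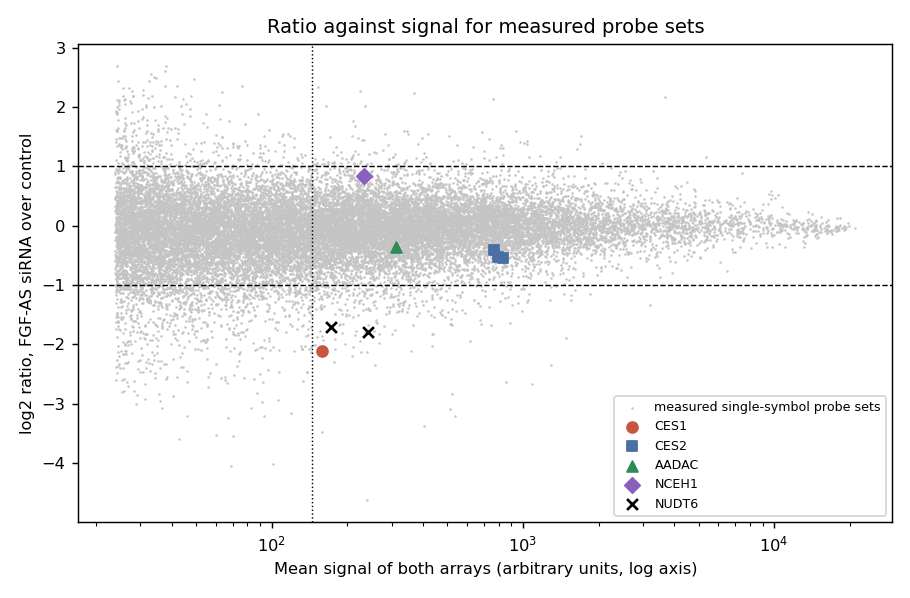
Log2 ratio of FGF-AS siRNA over control against the mean signal of both arrays (log axis) for every measured probe set with 1 gene symbol (grey), with the members, NCEH1 and NUDT6 marked; dashed lines show 2-fold and the dotted line the brighter limit of 145.2. CES1 at -2.11 lies beside the NUDT6 probe sets at the lower edge of the points of its signal, while the CES2 and AADAC points lie inside the 2-fold lines.

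The listed relatives of these enzymes gave 1 measured gene and it read in the other direction. Of 8 listed family genes, 5 had a probe set, and only NCEH1 reached the minimum. NCEH1 encodes neutral cholesterol ester hydrolase, a membrane enzyme of the AADAC family that acts on cholesteryl esters in macrophages. It read 166 on the control array and 301 on the FGF-AS siRNA array, a log2 ratio of 0.84 or 1.78-fold higher, 2.34 times the probe set SD, and stood 2.95 above CES1 on the log2 scale. AADACL2, a neighbour and relative of AADAC, read 11.9 and 4.9, CES5A read 3.2 and 2.5, and CES4A read 1.4 on both arrays. These were all under the minimum. CES1P2, AADACL3 and AADACL4 were not analysed here. AADACP1, a pseudogene of the AADAC family that was not on the list and was chosen after its values were seen, read 426.9 and 243.7 on 1569582_at, a log2 ratio of -0.79 or 1.73-fold lower.

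Other esterases that act on drugs and small esters did not share a large difference. Of 15 measured genes, 9 were below 0, against 51.8% of all measured genes, with a median log2 ratio of -0.09 against -0.02. A centring of the arrays on their medians moved both alike, to 0.02 and 0.10. With the mean over probe sets the list median was -0.29, against -0.06 over all measured genes. On their brightest probe sets, none of the 15 was 2-fold lower. The most negative was BPHL, a hydrolase that activates valacyclovir, at -0.56 (253.2 on the control array and 170.1 on the FGF-AS siRNA array). By brightest probe sets it was the only gene of the list with a ratio as low as that of CES2. Other measured probe sets of RBBP9 (-1.95 and -1.83), SIAE (-0.70), ABHD10 (-0.68), LYPLA2 (-0.56) and ESD (-0.54) were also as low. Those of PON2, APEH, CMBL and LYPLA1 were not. The prodrug hydrolase CMBL, which activates olmesartan medoxomil, was close to CES2, at -0.50 (3725.6 and 2641.3) and -0.45 on its other probe set. ACHE, acetylcholinesterase, was the only member past 2-fold, higher at 1.36, but it was dim (11.3 and 38.5). BCHE, butyrylcholinesterase of plasma, stood at -0.36 (546.5 and 425.5).

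Among enzymes of neutral lipid breakdown and storage, where CES1 and NCEH1 also act, 20 of 24 genes were measured and 10 lay on either side of 0, with a median of 0.01. By brightest probe sets, the members past 2-fold were the dim FAAH, which degrades fatty acid amides, at -1.31 (36.7 and 11.2), and the dim endothelial lipase gene LIPG at 1.04 (23.5 and 54.9). LIPA, the lysosomal acid lipase, read 2195 and 2607.5, a log2 ratio of 0.25. LIPE, hormone-sensitive lipase and the relative of AADAC, was dim at 21.7 and 27.4, with 0.27.

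Oxidizing enzymes of drug metabolism were mostly dim in these cells, and 5 of the 22 measured cytochromes P450 and other phase 1 genes reached the brighter limit. Of the 22, 15 were below 0 (68.2%), against 51.8% of all measured genes. The median was -0.19, or -0.08 after median centring, which moved that of all measured genes to 0.10. Past 2-fold on brightest probe sets were CYP2D6 (61.7 and 25.8, log2 ratio -1.09) and MAOA, monoamine oxidase A (67.4 and 28.5, -1.09), both lower and both dim. Their second probe sets gave 0.63 and 0.44, in the other direction. Of all measured genes, 2.72% were at least 2-fold lower. CYP2D6 also has near-identical copies in the genome that its probes could read. EPHX1, microsomal epoxide hydrolase, which shares the endoplasmic reticulum with the carboxylesterases, read 7523.2 and 6981.7, a log2 ratio of -0.11.

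Of 20 measured conjugating (phase 2) enzymes, 11 were below 0, against 51.8% of all measured genes, and the median was -0.01. After median centring it was 0.11, and that of all measured genes was 0.10. None was past 2-fold. At the ends were GSTZ1, a glutathione transferase that works in tyrosine breakdown, at -0.92 (336.7 and 175.1), and the dim SULT2B1, a sterol sulfotransferase, at 0.55 (19.7 and 31.7). Over these 4 enzyme lists together, 77 genes were measured. By brightest probe sets, 10 had a log2 ratio as low as that of CES2 or lower, and 0 as low as that of CES1. The lowest of their other probe sets were those of CYP1B1 at -2.10 (163.9 and 33.5), close to CES1, RBBP9 at -1.95 and -1.83, and DDHD1 at -1.80. The count of 10 in 77 is near the background, since 10.7% of all measured genes lay below CES2. So is the count of 0, since 0.235% of all measured genes lay below CES1. Their median was -0.09, against -0.02 over all measured genes.

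**Figure D3:**
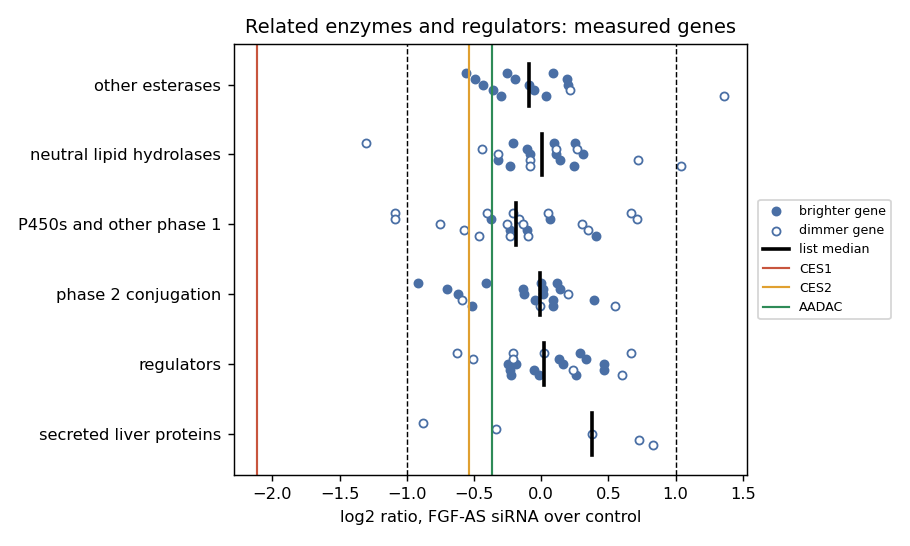
Log2 ratio of every measured gene in 6 lists, each by its brightest probe set only, with filled points for genes at or above the brighter limit and open points for dimmer ones, the list median as a black bar, and vertical lines at CES1 (-2.11), CES2 (-0.54) and AADAC (-0.37). No gene of these lists lies as low as CES1, and of all measured genes 0.235% lay lower than CES1. The 5 genes past the dashed 2-fold lines are all dim.

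Transcription factors known to act on liver and drug-metabolism genes showed no common direction. Of 21 measured, 11 were above and 10 below 0 on their brightest probe sets, with a median of 0.02 and none past 2-fold. Other probe sets past 2-fold were those of ARNT (-1.23 and -1.21), SP1 (-1.19) and CEBPD (-1.10), all lower. Their brightest gave -0.21, 0.29 and -0.19. Of all measured probe sets with 1 symbol, 5.33% were at least 2-fold lower. The list median was -0.21 when the probe sets of each gene were averaged. CEBPA, which drives liver and fat cell genes, was dim and stood at -0.63 (70.4 and 43.5), and the coactivator gene PPARGC1A, also dim, at 0.67 (52.5 and 87). NFE2L2, which encodes NRF2, an activator of detoxification genes, read 2084.4 and 2061.5, a log2 ratio of -0.02, but its other measured probe set gave -0.92. AHR, the receptor that acts at xenobiotic response elements, read 728.3 and 611.2, a log2 ratio of -0.25.

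The carboxylesterases stay in the endoplasmic reticulum through a tail that KDEL receptors bind. KDELR1 read 2021.4 and 2991.4, a log2 ratio of 0.56, with 0.04 on its other probe set, and KDELR3 stood at 0.10. GUSB, beta-glucuronidase, which in rodents is held in this compartment by a carboxylesterase, read 843.8 and 855.4, a log2 ratio of 0.02. Of 17 secreted liver proteins, 5 reached the minimum and none reached the brighter limit. TF, transferrin, stood at -0.88 (35.3 and 16.4) and AHSG, fetuin A, at 0.83 (20.3 and 40.8).

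Genes next to the members on the chromosome, 5 protein-coding genes on each side in the RefSeq gene table, were within 2-fold on their brightest probe sets. Beside CES1 on chromosome 16, 5 of the 10 neighbours were measured, 3 of them below 0, from LPCAT2, a lysophospholipid acyltransferase gene, at -0.49 (136.9 and 95.8) to the dim matrix protease gene MMP2 at 0.88 (21.6 and 45). Beside CES2 and CES3, which are adjacent on the same chromosome, the measured neighbours ran from TRADD, an adaptor of the TNF receptor, at -0.44 (439.1 and 321.1) to B3GNT9, a glycosyltransferase gene, at 0.47 (120 and 168.2). CIAO2B, a gene of iron-sulfur protein assembly and the direct neighbour of CES2, read 4798.4 and 4853.8, a log2 ratio of 0.02, and PHAF1 stood at -0.12. On chromosome 3, SUCNR1, the succinate receptor gene next to AADAC, read 4847 and 3182, a log2 ratio of -0.61, while RAP2B, a small GTPase gene, stood at 0.46 (462.8 and 637.1). MBNL1, a splicing regulator gene on the same side of AADAC, stood at 0.19 on its brightest probe set (1651.7 and 1883.7), but its 5 other measured probe sets ran from -1.99 (315.7 and 74.8) to 0.58.

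The measured genes with signals most like those of each member were found by the distance between their log2 signals on the 2 arrays. Closest to CES1 were LINC00189 at a distance of 0.18 (234.6 and 52.4), IPP at 0.26, ASTN2 at 0.35 and IL1A at 0.40, with log2 ratios from -2.04 to -1.69. Closest to CES2 were ANKRD17 at 0.01 (988 and 683.5), ARMC10, C5AR1 and ATP6V1C1, all within 0.05. Closest to AADAC were POLK at 0.02 (355.3 and 275.5), LINC00667, SMARCAD1 and PEX10, all within 0.03. The distances were larger for CES1 than for CES2 or AADAC. Likeness over 2 arrays rests on 1 difference per gene.

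The ratios of the members kept their direction under the alternatives in which they were measured. CES1 ran from -2.21 to -1.84, CES2 from -0.54 to -0.42 and AADAC from -0.37 to -0.26. Median centring shifted all ratios up by 0.11. The share of higher genes among all genes past 2-fold moved with the scaling, from 43.0% to 61.1% when the arrays were centred on their medians, 60.3% after quantile normalization and 58.0% after loess. So did the share of measured genes with a log2 ratio below 0, from 51.8% to 38.9%, 43.8% and 45.2% in the same order.

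**Figure D4:**
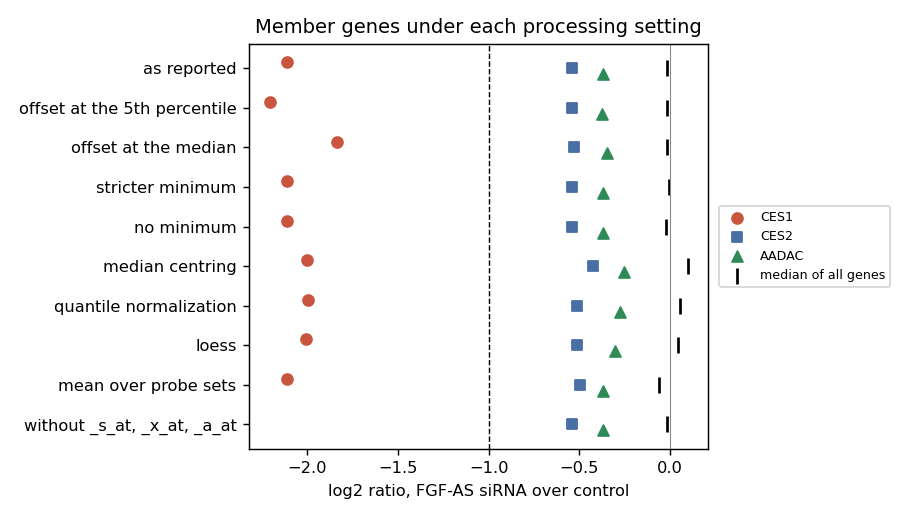
Log2 ratio of CES1 (circles), CES2 (squares) and AADAC (triangles), each by its representative value, and the median of all measured genes (bars) as reported and under 9 other processing settings, with 2-fold as a dashed line. CES1 stays left of the 2-fold line wherever it is measured and is missing in the last row, and CES2 and AADAC stay between that line and 0.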

How the data were processed

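RNA of 2 cultures was measured, 1 array per siRNA. The deposited intensities are probe set signals that the authors derived from the scanned arrays. Per the submitters' processing notes the tools were GCOS and MAS5, whose version, role and scaling target are not given in the sources used here. Symbols came from the platform annotation and were updated by gene identifier through RefSeq (GRCh38.p14), which held 41037 of 41091 single-symbol probe sets. Probe sets with several symbols (1801) or none (11721) were given no gene name.

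No further scaling was applied. A gene was represented by its brightest probe set. Probe set SDs were pooled over genes with 2 or more measured probe sets. Named genes were the members, their relatives, NUDT6, the genes past 2-fold of each list (cell type markers included) and of the neighbours, or otherwise the furthest from 0 in each direction, and the 4 nearest genes to each member. CMBL, BCHE, LIPA, LIPE, EPHX1, NFE2L2, AHR, KDELR3, CIAO2B, MBNL1, AADACP1 and the cell type markers within 2-fold or under the minimum that are named were added after their values were seen. So were SIAE, ABHD10, LYPLA2, ESD, PON2, APEH, LYPLA1, DDHD1, ARNT, SP1 and CEBPD. The members and lists were chosen with earlier results of these data known. The alternatives were 2 other offsets, 2 other minimums, 3 scalings and 2 other ways to represent a gene. The procedure was tested on simulated data. Python 3.11.15, pandas 2.3.3, R 4.3.3 and limma 3.58.1 (loess) were used. The number of arrays limits the precision.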

Additional observations from a re-analysis of the deposited data

How the results depend on the processing

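No paired analysis was possible because each group holds 1 array, and for the same reason no replicate could be left out. The ratios of CES1, CES2 and AADAC moved by less than the probe set SD under every alternative that measured them. The count of member genes past 2-fold was 1 under all but the one that left out probe sets ending in _s_at, _x_at or _a_at, where it was 0 because CES1 has only such a probe set. Genes at least 2-fold lower and higher numbered 165 and 129 (1.34% and 1.04%) with the offset at the median of all signals, 86 and 76 (1.11% and 0.985%) at the stricter minimum, and 1270 and 1074 (6.42% and 5.43%) with no minimum, against 336 and 253. List medians moved by more than the SD of 0.49 divided by the square root of the genes measured as follows. For the regulators, the median was 0.14 at the stricter minimum, 0.13 with no minimum, 0.13 under median centring, 0.13 after quantile normalization and -0.21 when a gene's probe sets were averaged. For the phase 1 enzymes it was -0.076 under median centring and -0.070 after quantile normalization. Under median centring it was 0.12 for the neutral lipid enzymes and 0.11 for the phase 2 enzymes. The same centring gave 0.098 for all measured genes. Other esterases stood at -0.29 with the mean over probe sets and -0.27 without the shared-type probe sets, which gave 0.19 for the neutral lipid enzymes and 0.018 for secreted liver proteins. With no minimum, the relatives of the members stood at 0 and the neighbours of CES1 at 0.11. With the mean over probe sets, the neighbours of CES1 stood at 0.031 and those of AADAC at -0.29. The cause was not tested. Raw probe intensities and detection calls were not used here, so signals under the minimum cannot be told from background.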

Other observations

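Probe sets of one gene disagreed for several enzymes related to the members, in contrast to the close values of CES2. The CES2 probe sets were all brighter ones, while the lowest ratio of each gene below came from a dim one. RBBP9, a serine hydrolase, had a log2 ratio of -0.43 by its brightest probe set (279.1 on the control array and 205 on the FGF-AS siRNA array). Its 2 others, both dim, gave -1.95 (78 and 15.7) and -1.83 (112.5 and 27.3). CYP1B1, a cytochrome P450 of extrahepatic tissues, had one of -0.24 by its brightest probe set (2302.9 and 1955). Its 3 others ran from -2.10 on a dim one (163.9 and 33.5) to -0.26. MGLL, monoglyceride lipase, stood at 0.11 on a dim probe set (79.3 and 86.3) and at -1.25 on the other, also dim (61.5 and 22.4). These genes were chosen after their values were seen.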
